A study of Drosophila melanogaster with 6 samples.

Results

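The genes described here lie in the pericentric heterochromatin of Drosophila melanogaster, the repeat-rich DNA that flanks the centromeres. They were taken from a list of 31 single-copy pericentric genes, matched by symbol to the platform's probe table, with 1 probe set kept per gene. Of the 31 genes, 24 were measured, out of 11956 genes in all. Of these, 20 were found under the listed symbol and 2 under a newer one, Parp as Parp1 and Cht3 as Cht10. Another 2, Myo81F and Pzl, were found under former gene models that have since been merged into them. The other 7 genes (rl, Nipped-A, RpL5, RpL38, vtd, Set1 and uex) were not analysed here.

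RNA from whole 1st instar larvae was hybridised to Affymetrix arrays. Mutant larvae carried the allele dKDM4A KG04636 over the deletion ∆dKDM4A, and control larvae carried dKDM4A precise KG06436 over dKDM4A precise NP0618, a pair of precise-excision alleles. The labels thus number the mutant's insertion and one of the excised ones differently, and the sources used here do not settle whether they were 1 insertion. There were 3 arrays per genotype, which the titles call biological replicates, and the RNA of each came from a pool of 200 larvae grown at 25 °C and collected about 48 after egg laying, a time given without a unit. Values are log2 expression, and Kdm4A itself was 3.38 ± 0.08 in the mutant and 5.30 ± 0.14 in the control (SD, n = 3 each, limma adjusted p = 0.00174).

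Pericentric heterochromatin carries methylation of histone H3 at lysine 9, which is bound by the protein HP1a. Most genes are silenced when moved into it, but genes that normally reside there are transcribed in it, and lt is known to be misexpressed when a rearrangement moves it away. KDM4A is a JmjC demethylase that acts on methylated lysines of histone H3 and is known in flies to bind HP1a. The comparison of genotypes therefore asks, for these genes, how their RNA levels differ when Kdm4A is depleted. By the order of genes in the RefSeq table of Release 6, at most 28 protein-coding genes separated a measured gene of the list from the centromere end of its arm. The 24 genes fell on 2L (5 genes), 2R (8 genes), 3L (8 genes) and 3R (3 genes). Thus 13 lay on chromosome 2, which also carries Kdm4A, and 11 on chromosome 3.

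One of the 24 genes rose in the mutant and none fell at a limma adjusted p under 0.05. This gene was CG40298, an uncharacterised protein-coding gene on 3L, which was 5.92-fold higher. Over all genes 19 of 11956 passed (0.159%), with 0.0669% higher and 0.092% lower in the mutant. A second gene, Scp1, was 1.77-fold higher and passed when the replicate number was included as a block, where 98 of all genes passed (0.82%, and 0.293% as higher). Its control values lay below the lower quartile of genes, so this fold does not size a difference in RNA level. The other 22 genes had log2 differences between -0.41 and 0.41, and 0 of them passed in either fit. In the fit without the block, 2 of the 22 had an unadjusted p under 0.05, beside 5.28% of all genes. The median difference of the 24 genes was 0.01, beside -0.01 for all genes, and 13 of the 24 were higher in the mutant, or 54.2%, beside 48.2% of all genes.

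**Figure D1:**
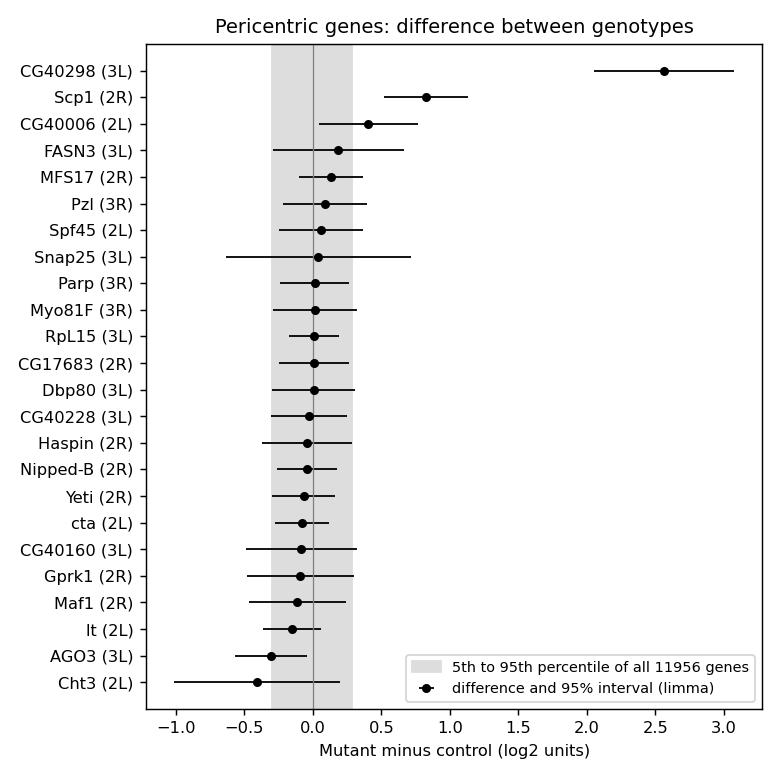
Difference between mutant and control in log2 units for each of the 24 measured pericentric genes, with its chromosome arm, as a point with its 95% interval from limma (n = 3 arrays per genotype). The grey band spans the 5th to the 95th percentile of all genes, -0.30 to 0.28. CG40298 and Scp1 lie far to the right of the band, and most other genes lie inside it.

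CG40298 had log2 values of 8.12, 8.11 and 8.47 in mutant arrays 1, 2 and 3 and of 5.34, 5.56 and 6.10 in control arrays 1, 2 and 3. The lowest mutant value lay 2.01 log2 units above the highest control value, so the groups did not overlap. The means were 8.23 ± 0.21 in the mutant and 5.66 ± 0.39 in the control (SD, n = 3 each). The difference was 2.57 with an SE of 0.21 and a 95% interval of 2.05 to 3.08 (limma adjusted p = 0.0173). It was present in each pair of same-numbered arrays, at 2.78, 2.55 and 2.37, and the adjusted p was 0.0023 with the replicate block. Leaving out mutant array 1, mutant array 2 or control array 2 ended the call, with adjusted p values of 0.116, 0.139 and 0.162, while the difference stayed between 2.51 and 2.63.

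The genes around CG40298 on 3L did not share its difference. Among the 5 measured genes on each side of it, 0 passed limma in either fit, and AGO3 alone had an unadjusted p under 0.05. Their log2 differences lay between -0.30 and 0.09, and 8 of the 10 were lower in the mutant, as were 6195 of all 11956 genes. Among these 8, CG40470, lncRNA:CR40053 and nvd lay below the lower quartile of genes on all 6 arrays. The nearest on either side were Spf30, a splicing factor gene, with -0.10 (SE 0.13), and CG17698 with -0.03 (SE 0.16). Among the 10, AGO3 and Snap25 are themselves listed pericentric genes.

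Scp1 encodes a sarcoplasmic calcium-binding protein and lies on 2R. Its log2 values were 4.70, 4.70 and 4.84 in mutant arrays 1, 2 and 3 and 3.70, 3.95 and 4.13 in control arrays 1, 2 and 3. All mutant values were above all control values, and the control values lay below the lower quartile of the genes on their arrays. For such dim values the difference and its interval do not bound a difference in RNA level. The means were 4.75 ± 0.08 in the mutant and 3.93 ± 0.22 in the control (SD, n = 3 each). The difference was 0.82 (SE 0.13, 95% interval 0.52 to 1.13), with a limma adjusted p of 0.111, and of 0.0352 with the replicate block. It was 1.01, 0.75 and 0.71 in pairs 1, 2 and 3. In whole larvae, more muscle cells and more Scp1 RNA per cell cannot be told apart. Of 13 muscle markers 9 were measured, all 9 were higher in the mutant and 0 passed. Of these, Mlp60A and Mlp84B, genes of muscle LIM proteins, had the largest log2 differences, 0.59 and 0.51, and the other 7 had 0.02 to 0.22. Their mean log2 value was 11.58 to 11.63 in mutant arrays and 11.13 to 11.65 in control arrays, and the log2 of their summed level was 15.36 to 15.42 and 15.00 to 15.41. The mean of the muscle markers differed by 0.50 in pair 1, 0.15 in pair 2 and -0.07 in pair 3. Among other marker lists, 1 of 5 cuticle markers was higher in the mutant (median log2 difference -0.44) and 1 of 6 gut markers (median -0.19). Of 10 neuron markers 7 were higher (median 0.13), and of 4 fat body markers 2 were (median 0.01). Of the markers in these lists 0 passed. The part of the muscle markers and of these others in the Scp1 result was not tested. None of the 5 measured genes on each side of Scp1 passed limma, and 0 of the 10 had an unadjusted p under 0.05. Their log2 differences lay between -0.11 and 0.13. Among these 10, Maf1, MFS17, Haspin, CG17683 and Gprk1 are themselves listed pericentric genes.

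**Figure D2:**
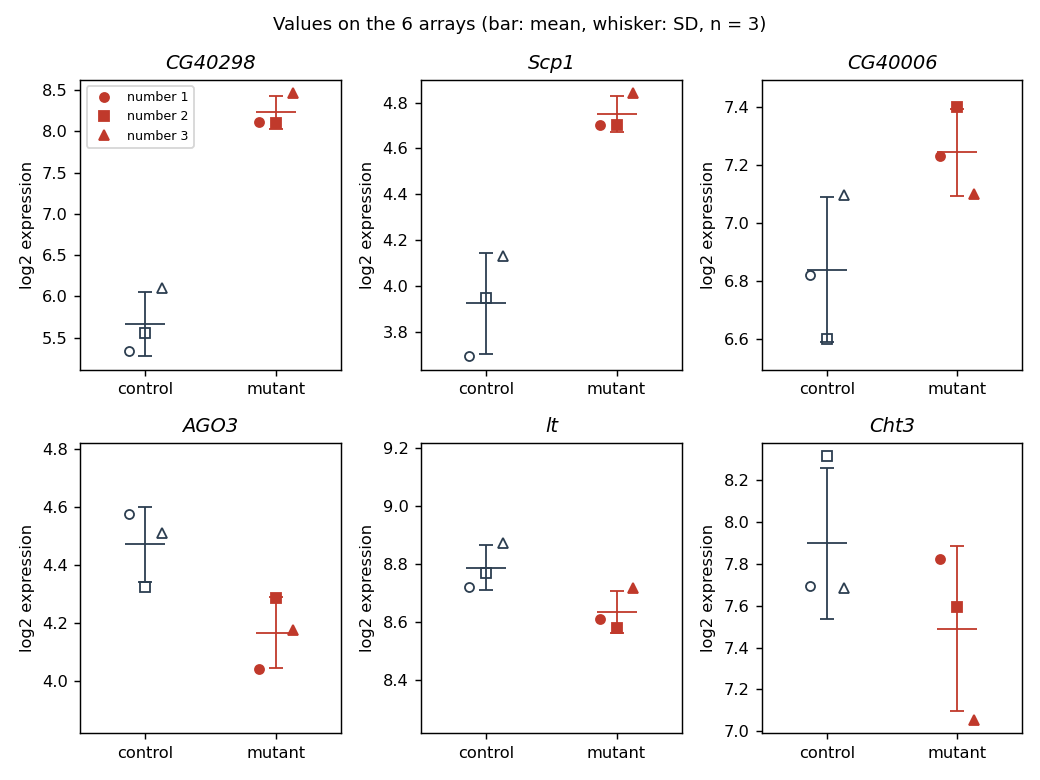
Log2 expression on each of the 6 arrays for CG40298, Scp1, CG40006, AGO3, lt and Cht3, by genotype. Points are arrays (circle, square and triangle for replicate numbers 1, 2 and 3), bars are means and whiskers are SD (n = 3). The genotypes are apart for CG40298, Scp1, lt, AGO3 and CG40006, by little in the last 3, and overlap for Cht3.

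Groups that did not overlap were found for 5 of the 24 genes, 3 higher and 2 lower in the mutant, while 10.3% of all genes had such groups, 4.1% higher and 6.22% lower. Besides CG40298 and Scp1 these were CG40006, AGO3 and lt, none of which passed. Of the 24 genes, 7 had the same sign in all 3 pairs, or 29.2%, beside 33.7% of all genes. Both shares include CG40298 and Scp1.

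The genes of chromosome and chromatin proteins showed small differences. Of the 8 listed, 5 were measured, with log2 differences from -0.30 to 0.02, 4 of them lower in the mutant, and 0 passed in either fit. AGO3, an Argonaute protein of the piRNA pathway of the germline, had log2 values of 4.04, 4.29 and 4.17 in mutant arrays and 4.58, 4.33 and 4.51 in control arrays. The groups were apart by a narrow margin, since mutant array 2 and control array 2 were close. All 3 mutant values and that of control array 2 lay below the lower quartile of genes, where the arrays could show little of a decrease. The difference was -0.30 (SE 0.11, limma adjusted p = 0.822). The 7 measured germline markers, of 8 listed, had a median difference of -0.06, and 1 of the 7 was higher in the mutant. Their mean log2 value was 4.37 to 4.54 in mutant arrays and 4.45 to 4.66 in control arrays, and 4 of the 7, vas among them, lay below the lower quartile of genes on all arrays. Their part in the AGO3 values was not tested.

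Nipped-B, which loads cohesin onto chromosomes, had log2 values of 3.39, 3.42 and 3.31 in mutant arrays and 3.48, 3.48 and 3.30 in control arrays. Parp, which adds poly(ADP-ribose) to proteins in chromatin, had 3.30, 3.25 and 3.31 in mutant arrays and 3.40, 3.09 and 3.33 in control arrays. In both genes the groups overlapped, and all 6 values lay below the lower quartile of the genes, so the arrays could show little of a decrease. Nipped-B differed by -0.04 (95% interval -0.26 to 0.17) and Parp by 0.02 (95% interval -0.24 to 0.27). Haspin, a kinase of histone H3 in mitosis, differed by -0.04 (SE 0.14). Yeti, a chromatin protein, differed by -0.07 (SE 0.10).

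The genes of the ribosome and of RNA handling stayed close to 0. Of the 6 listed, 4 were measured, with differences from -0.11 to 0.06, and 0 passed in either fit. RpL15, a protein of the large ribosomal subunit, had log2 values of 14.42, 14.45 and 14.48 in mutant arrays and 14.41, 14.43 and 14.49 in control arrays. These 6 values spanned 0.07, and the difference was 0.01 with a 95% interval of -0.18 to 0.19. The RpL15 values lay between percentiles 99.97 and 100 of the genes, where arrays given nearly the same distribution leave little room for a difference. Its interval therefore does not bound a difference in RNA level. Dbp80, an RNA helicase of mRNA export, differed by 0.01 (SE 0.13). Spf45, a splicing factor, differed by 0.06 (SE 0.13). Maf1, a repressor of RNA polymerase III, differed by -0.11 (SE 0.15).

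Among genes of signalling, trafficking and membrane proteins, 6 of the 8 listed were measured, 3 higher and 3 lower, and 0 passed in either fit. The gene lt, which encodes a subunit of a complex that delivers cargo to lysosomes and pigment granules, had log2 values of 8.61, 8.58 and 8.72 in mutant arrays. In control arrays they were 8.72, 8.77 and 8.87. The values were lower in the mutant in each pair, by 0.11, 0.19 and 0.16, but the groups were apart by only 0.00538. The difference was -0.15 (SE 0.09, 95% interval -0.36 to 0.06, limma adjusted p = 0.998). The gene cta, a G protein alpha subunit known for its role in gastrulation, differed by -0.08 (SE 0.08), and a second probe set that names cta and CG40005 differed by -0.10 (SE 0.15). Gprk1, a G protein-coupled receptor kinase, differed by -0.09 (SE 0.16). MFS17, a transporter of the major facilitator family, differed by 0.13 (SE 0.10). Pzl, a homologue of the mechanosensitive channel Piezo, differed by 0.09 (SE 0.13). All 6 values of Pzl and of Myo81F, a myosin gene, lay below the lower quartile of genes. The other 5 probe sets of Pzl differed by -0.11 to 0.10 and those of Myo81F by 0.02 and 0.12, and 0 of these 7 passed.

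All 6 listed genes of muscle, metabolism and secreted or surface proteins were measured, with differences from -0.41 to 0.82. Scp1 is among them, and 0 of the other 5 passed in either fit. CG40006, a scavenger receptor of the CD36 family, had log2 values of 7.23, 7.40 and 7.10 in mutant arrays and 6.82, 6.60 and 7.10 in control arrays. Mutant array 3 and control array 3 were nearly equal. The difference was 0.41 (SE 0.15, 95% interval 0.04 to 0.77, limma adjusted p = 0.865). Cht10, listed as Cht3 and encoding a chitinase, differed by -0.41 (SE 0.25, 95% interval -1.01 to 0.20), and its groups overlapped. In pairs 1, 2 and 3 it differed by 0.13, -0.72 and -0.63. FASN3, a fatty acid synthase, differed by 0.19 (SE 0.20), of which most lay in pair 1 with 0.68. Myo81F differed by 0.02 (SE 0.13). CG40160, whose synonym cSPH242 names it as a serine protease homologue, differed by -0.08 (SE 0.17). The remaining genes, CG17683 and CG40228, differed by 0.01 (SE 0.11) and -0.03 (SE 0.12). CG17683 encodes a protein related to factors of cytosolic iron-sulphur cluster assembly.

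For 17 of the 24 genes the 95% interval of the difference lay between -0.5 and 0.5, and for 21 it lay between -1 and 1. The intervals of CG40298, Scp1 and Cht10 reached beyond these bounds. The 17 include Nipped-B, Parp, Pzl and Myo81F, which were dim on all arrays, so for these 4 the interval does not bound a difference in RNA level. The same holds for RpL15, which lay at the top of the values on all arrays. A missed threshold does not show equal levels.

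Replicate number was the second axis along which these genes varied. Arrays numbered 3 were compared with arrays numbered 1, with genotype in the fit, and 991 of all genes passed limma (8.29%), 4.93% higher and 3.36% lower in number 3. The count over all genes was 136 without mutant array 3, 126 without control array 1 and 60 without control array 3. Of the 24 pericentric genes 1 passed, Snap25, which encodes a SNARE protein of synaptic vesicle release. Its log2 values were 8.92, 9.17 and 9.57 in mutant arrays 1, 2 and 3 and 8.64, 9.25 and 9.64 in control arrays 1, 2 and 3. Both arrays numbered 3 were above all others and both arrays numbered 1 were below all others. The difference between numbers 3 and 1 was 0.83 (SE 0.13, 95% interval 0.50 to 1.15, limma adjusted p = 0.0313), a 1.77-fold difference. Leaving out mutant array 3, control array 1 or control array 3 ended this call, with adjusted p values of 0.118, 0.132 and 0.206 and differences of 0.91, 0.65 and 0.74. Between genotypes Snap25 differed by 0.04 (SE 0.28), the largest SE among the 24 genes, and by 0.04 with an SE of 0.10 under the replicate block.

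The neuron markers differed between the array numbers as well. All 10 measured markers, of 12 listed, were higher in arrays numbered 3 than in arrays numbered 1, and 6 of them passed, nSyb and ChAT among them. Their mean log2 value was 7.59, 7.56 and 8.13 in mutant arrays 1, 2 and 3 and 7.29, 7.70 and 8.05 in control arrays. The log2 of their summed level was 11.61 to 12.17 in mutant arrays and 11.37 to 12.09 in control arrays. Of 5 cuticle markers 4 were lower in arrays numbered 3 by the same test, with a median difference of -2.06. The gap between 3′ and 5′ probe sets of the actin control, a sign of RNA quality, was 2.39 and 2.34 in the arrays numbered 1 and 1.53 to 1.84 in the other 4 arrays. The eIF-4a and GAPDH controls also had their largest gaps in the arrays numbered 1. The 18S rRNA control did not, with 2.79 in mutant array 1 and 1.68, its lowest value, in control array 1. The part of these in the Snap25 values was not tested.

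**Figure D3:**
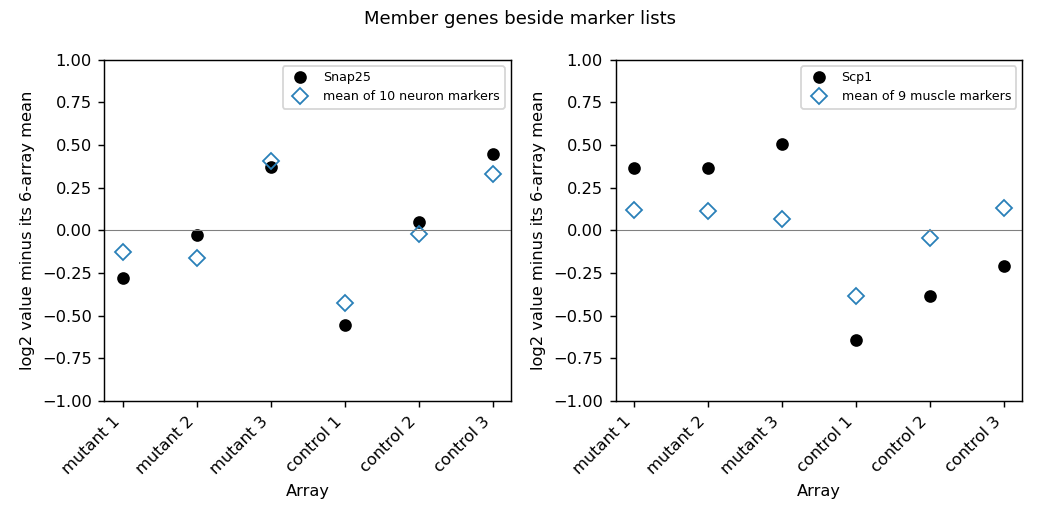
Log2 value minus its mean over the 6 arrays, by array, for Snap25 beside the mean of 10 neuron markers (left) and for Scp1 beside the mean of 9 muscle markers (right). Snap25 and the neuron markers are highest in both arrays numbered 3. Scp1 and the muscle markers are both above their means in all 3 mutant arrays, and in control array 3 the muscle markers are above theirs and Scp1 is below its own.

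Most of the other pericentric genes were also somewhat higher in arrays numbered 3. Of the 24 genes 17 were higher than in arrays numbered 1, or 70.8%, beside 55.2% of all genes, and the median difference was 0.08, beside 0.03 for all genes. Besides Snap25, the largest differences were those of CG40298 with 0.56 (SE 0.13, adjusted p = 0.0614) and CG40160 with 0.41 (SE 0.13, adjusted p = 0.116). Gprk1 differed by 0.38 (SE 0.10), FASN3 by 0.38 (SE 0.21), Maf1 by 0.37 (SE 0.11) and Spf45 by 0.32 (SE 0.10), and none of these passed. The largest difference in the other direction was that of Cht10 with -0.39 (SE 0.22). In 14 of the 24 genes the difference between numbers was larger than that between genotypes, or 58.3%, beside 68.0% of all genes. The lists compared below also leaned towards arrays numbered 3. The share higher in number 3 than in number 1 was 57.5% for other genes next to the centromeres (median 0.06). It was 76.2% for heterochromatin factor genes (median 0.16) and 86.2% for chromosome 4 genes (median 0.33).

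**Figure D4:**
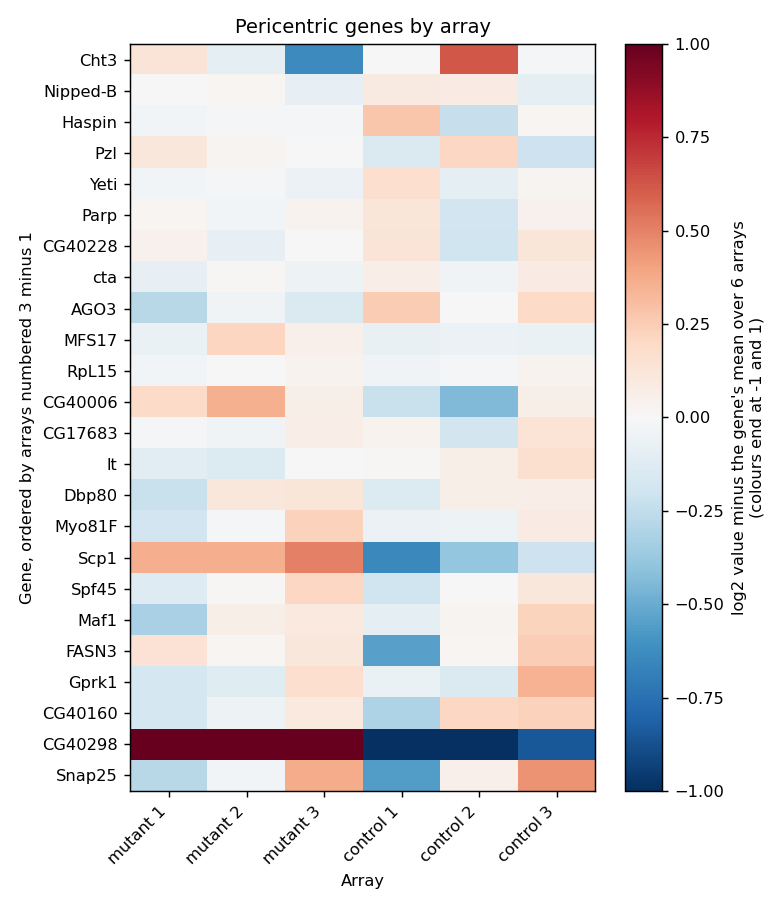
Log2 value minus the gene's mean over the 6 arrays for the 24 pericentric genes (rows, ordered by the difference between arrays numbered 3 and 1) in each array (columns). Colours end at -1 and 1. CG40298 and Scp1 separate the genotypes, and Snap25 in the bottom row is highest in both arrays numbered 3.

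**Figure D5:**
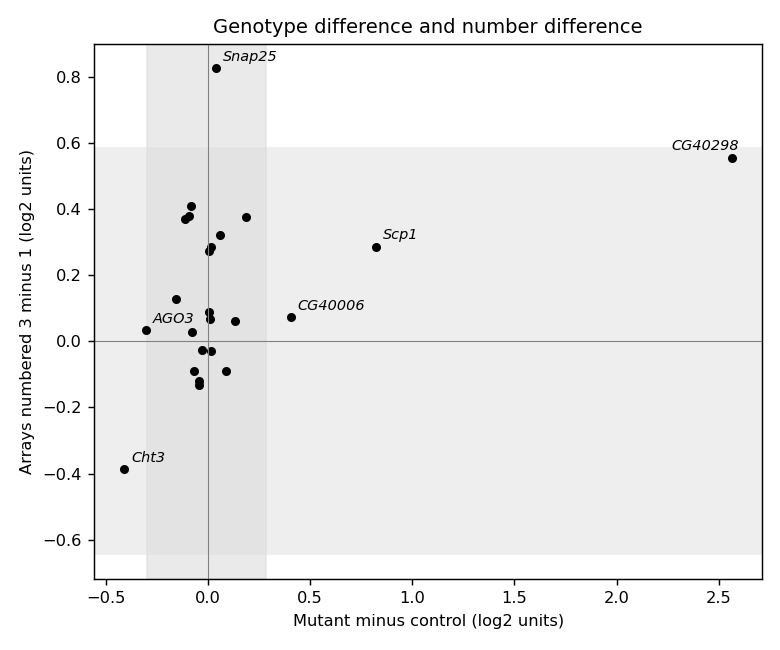
Mutant minus control (horizontal axis) against arrays numbered 3 minus 1 (vertical axis), both in log2 units, for the 24 pericentric genes. Grey bands span the 5th to the 95th percentile of all genes on each axis. CG40298, Scp1 and CG40006 lie to the right of the vertical band, AGO3 and Cht3 to its left, and Snap25 lies above the horizontal band.

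Other genes next to the centromeres gave no called gene. For each of 2L, 2R, 3L and 3R the 30 measured genes nearest to the centromere end, with the listed genes left out, were taken from the gene order, 120 genes in all. They were chosen by order alone, and whether each lies in heterochromatin was not checked. By limma 0 of the 120 passed, and 0 passed with the block. An unadjusted p under 0.05 was found for 7 of them and, with the block, for 11, where 5.28% of all genes had one without the block and 11.2% with it. The median difference was -0.03 and 48 were higher. UQCR-11, a subunit of respiratory complex III on 3L, had the smallest p, with 0.57 (SE 0.09, adjusted p = 0.124). CG1092 differed by -0.38 (SE 0.08) and CG14642 by 0.83 (SE 0.18), and neither passed.

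The genes of heterochromatin factors and of chromosome 4, another heterochromatic compartment, are given for comparison. Of 21 measured heterochromatin factor genes Kdm4A alone passed, in both fits, and the median difference was -0.05. HP6, an HP1 family protein, and Set2, an H3K36 methyltransferase, each differed by -0.20 (SE 0.10 and 0.14). Of 65 genes of chromosome 4, 1 passed without the block, the glutamate receptor gene Ekar with 0.99 (SE 0.09, adjusted p = 0.0173), and yellow-h with -1.44 (SE 0.21) also passed with it (adjusted p = 0.0238). Their median difference was 0.01. Whether the pericentric genes differ from these lists was not tested.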

How the data were processed

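The authors deposited log2 values per probe set for 6 Affymetrix arrays, which come from RMA (per the submitters' processing notes). No version is given in the sources used here. The scale was read from the range of the values. Because RMA gives all arrays nearly the same distribution, a shift common to most genes cannot be seen. The table holds 18952 probe sets. After 183 controls were removed, 13647 named 1 gene in the platform table, 402 named several and 4720 were unlisted. Names were updated through gene IDs or former locus tags of the NCBI table of Release 6, which matched 11904 of 11956 genes. For genes with several probe sets, the one with the highest mean value was kept. Of the 24 pericentric genes, 4 have probe sets with the suffix s_at, whose probes can match more than 1 transcript.

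Genotypes were compared with limma 3.58.1 under R 4.3.3, using lmFit and eBayes with two-sided tests. P-values were adjusted over the whole set of 11956 genes by Benjamini-Hochberg, and an adjusted p under 0.05 was a call. Arrays numbered 3 and 1 were compared with genotype in the fit. The titles' replicate numbers were checked for pairing. Same-numbered arrays deviated together from their group means, with correlations over genes of 0.685 (number 1), 0.152 (number 2) and 0.756 (number 3). Against this, mutant array 2 had its highest correlation with control array 1 (0.353). The genotype results come from the fit without a block. A second fit used the numbers as a block, and its values stand beside each call they change. The fits were tested on simulated data with 200 changed genes. The fit with the block made 17.4 false calls per run on average, and the fit without it 0.1. Of 2-fold changes, the fit with the block recovered 98.9% and the fit without it 73%. In the simulated data same-numbered arrays shared their number effect in full, as the block assumes. The real arrays numbered 2 shared it weakly, so these rates do not show which fit suits the data better. The members, lists and tests were chosen with earlier results of these data known.

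Per-array values are given for pericentric genes called between genotypes, with or without the block, or between numbers 3 and 1, for those with an unadjusted p under 0.05 or groups apart between genotypes, and for lt, Nipped-B, RpL15, Parp, Snap25 and Scp1. Up to 3 genes with the smallest p are named in each comparison list. Other settings tried were 2 rescalings of the arrays (quantile and median), dim genes left out, other uses of the probe sets, limma's trended and robust prior, weights per array (statmod 1.5.0), the block, no genotype term, and left-out arrays. Plots used matplotlib 3.10.9. The number of arrays limits the precision.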

Additional observations from a re-analysis of the deposited data

How the results depend on the processing

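CG40298 kept its direction in all 18 alternatives, at 2.40 to 2.78, and lost the call in 4 of them. Beside the 3 left-out arrays named in the report, this happened without both arrays numbered 1 (adjusted p = 0.268), where 0 of all genes passed limma and 440 had an unadjusted p under 0.05. Scp1 lay between 0.71 and 0.93 in 17 alternatives and passed in 2, with the replicate block and with array weights (adjusted p = 0.022). It passed in none of the fits with the block that left out both arrays of 1 number (adjusted p from 0.0593 to 0.101). For the other 22 genes, 0 of 391 alternatives gave a call between genotypes. These directions could not have been reversed by leaving out arrays, because the groups of CG40298 and Scp1 do not overlap.

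The number of pericentric genes called was 2 with the block and with array weights, 0 once both arrays numbered 1 were dropped, and between 0 and 1 when any single array was. Over all genes the 19 calls became 11 in the upper 60% by mean, 82 with array weights, 98 with the block, 0 after dropping both arrays numbered 1, and between 5 and 18 when any single array was dropped. With the block and without both arrays numbered 1, 2 or 3, they were 90, 110 and 23, where 1 residual degree of freedom per gene is left. Among other proximal genes 1 passed with array weights, UQCR-11. Among heterochromatin factors 0 passed without both arrays numbered 1. In the upper 60% 0 passed as well, but Kdm4A was too dim to be kept there and was not tested. Chromosome 4 genes gave 2 calls with array weights, with the block, and with the block without number 2. They gave 0 in the upper 60%, with the block without number 3 and after dropping both arrays numbered 1. Single left-out arrays gave 0 to 1. Ekar was also too dim for the upper 60% and was not tested there. Between arrays numbered 3 and 1, the count was 0 of all genes and 0 of the pericentric genes without the genotype term, with 2768 of all genes at an unadjusted p under 0.05. It was 60 to 1290 and 0 to 2 with 1 array left out, the second gene being FASN3 without mutant array 1 (adjusted p = 0.0425). The median of the pericentric genes between numbers was 0.0567 with median centring, 0.108 in the upper 60%, and 0.0541 to 0.140 with 1 array left out. The filter tests fewer genes, and leaving out arrays leaves fewer samples. For the other changes the cause was not tested. The block changed no call of the 24 genes other than that of Scp1. Dim values limit what the arrays show for Nipped-B, Parp, Pzl and Myo81F, and for Scp1 in the control arrays. For RpL15 the limit is its place at the top of the values.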
